A study of Rattus norvegicus with 6 samples.

Results

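The 10 genes described here encode the CDK inhibitors and the D-type cyclins of rat: the 3 Cip/Kip genes Cdkn1a, Cdkn1b and Cdkn1c, the 4 INK4 genes Cdkn2a, Cdkn2b, Cdkn2c and Cdkn2d, and the cyclin genes Ccnd1, Ccnd2 and Ccnd3. They were found by gene symbol among the 23091 genes of the deposited table, where each of the 10 symbols stands on a single Ensembl identifier. Messenger RNA was measured by polyA-selected RNA-seq in wild-type mesenchymal stem cells from rat marrow, which are adherent stromal cells. DMSO, a solvent, was given to the 3 samples called CK. The other 3 samples are called CYSP after their treatment, an abbreviation whose meaning is not in the labels. Both groups were in neural differentiation medium for 7 days, so the control is the solvent in that same medium and not untreated stem cells. The sources used here give no strain, age or sex of the animals, and whether each replicate is a culture or animal of its own is not labelled. P-values therefore measure only the spread between these samples, and part of that may be technical.

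A D-type cyclin binds CDK4 or CDK6, and the active pair phosphorylates the retinoblastoma protein, which frees E2F factors to switch on genes of S phase. INK4 proteins bind CDK4 and CDK6 and keep the cyclin away. Cip/Kip proteins inhibit complexes that hold CDK2, and they can also help a D-type cyclin to assemble with its kinase. In marrow stromal cells these genes are known for setting the choice between growth, quiescence and senescence.

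Total counts per sample were 15060900 to 17244700, and a count of 0 would allow up to 0.174 to 0.199 CPM, counts scaled to a common library size, by the limit of 3 counts, which covers counting error only. The replicates of a group differed by more than sampling noise in each of the 6 pairs of libraries. Mitochondrial transcripts made up 4.96% to 5.06% of counts in CK and 10.9% to 11.1% in CYSP. All 10 stromal markers were detected, with a summed level of 67965 to 70236 CPM in CK and 17413 to 18569 CPM in CYSP. The collagen genes Col1a1 and Col1a2, each lower in CYSP, carried most of the sum. By the edgeR test described below, 6 of the 10 were higher in CYSP and 4 lower, beside 38.2% and 37.8% of all genes tested. The median log2 fold change of this list was 0.41. All 10 macrophage and leukocyte markers were also detected, with a sum of 1693 to 1919 CPM in CK and 531 to 536 CPM in CYSP, and 8 of the 10 fell while Cd163 rose. Of 8 proliferation markers 7 fell and none rose, and their sum was 604 to 691 CPM in CK and 232 to 243 CPM in CYSP. Of the neuronal markers Rbfox3 was at 0 in every sample, and the sum of the 8 was 14.6 to 15.1 CPM in CK and 85.8 to 91.1 CPM in CYSP. Of the 4 neuronal markers tested, Tubb3 and Snap25 rose while Map2 and Dcx fell. The sum of the 5 adipocyte markers was 73.6 to 80.1 CPM in CK and 605 to 636 CPM in CYSP. Adipoq made up most of the CYSP sum and Lpl most of the CK sum. Of the 3 tested, Adipoq and Lpl rose while Fabp4 fell from 17.1 to 8.91 CPM. Cidec was at 0 throughout, and Plin1 had summed counts of 8 in CK and 0 in CYSP. The sum of the 5 endothelial markers was 1.45 to 2.14 CPM in CK and 1.08 to 2.25 CPM in CYSP, with Emcn at 0. Of the 2 tested, Kdr rose from summed counts of 0 in CK to 58 in CYSP and Tek fell from 77 to 9. The part of these cells in the values of the 10 genes was not tested, and fewer cells of a type cannot be told apart from less RNA per cell in these bulk samples.

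The control of these genes starts at their promoters, so the windows of 4 of them are shown: the inhibitor gene with the largest increase (Cdkn1a), the neighbouring pair that moved in opposite directions (Cdkn2a and Cdkn2b), and the D-type cyclin gene among those matched (Ccnd3). The RefSeq promoter table of build GRCr8, which holds 250 bases before to 50 bases after a gene's start, matched 7 of the 10 genes by symbol. The windows are chr20:7150682-7150981 (+ strand), chr5:109107907-109108206 (- strand), chr5:109134806-109135105 (- strand) and chr9:20897826-20898125 (- strand), each 300 bases, written 5′ to 3′. Capitals mark matches on either strand to the GC box GGGCGG, the cAMP response element TGACGTCA, the CCAAT box CCAAT, the TATA box TATAAA, the E-box CACGTG and the E2F-type sites TTTCCCGC, TTTGGCGC and TTTCGCGC. None of the matches marked here overlap. The Cdkn2a window lies at a start inside the annotated gene, downstream of its outermost start.
Cdkn1a: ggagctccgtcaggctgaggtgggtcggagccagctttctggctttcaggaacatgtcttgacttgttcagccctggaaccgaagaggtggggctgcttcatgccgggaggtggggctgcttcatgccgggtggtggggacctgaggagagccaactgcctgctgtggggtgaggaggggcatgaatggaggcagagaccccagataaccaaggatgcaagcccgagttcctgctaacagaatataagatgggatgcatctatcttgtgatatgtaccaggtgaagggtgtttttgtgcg
Cdkn2a: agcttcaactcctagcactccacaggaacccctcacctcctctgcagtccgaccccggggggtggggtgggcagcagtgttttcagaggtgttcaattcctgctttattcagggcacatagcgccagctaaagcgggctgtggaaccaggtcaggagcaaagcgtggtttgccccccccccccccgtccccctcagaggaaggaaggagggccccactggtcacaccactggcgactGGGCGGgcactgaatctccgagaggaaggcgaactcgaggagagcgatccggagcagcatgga
Cdkn2b: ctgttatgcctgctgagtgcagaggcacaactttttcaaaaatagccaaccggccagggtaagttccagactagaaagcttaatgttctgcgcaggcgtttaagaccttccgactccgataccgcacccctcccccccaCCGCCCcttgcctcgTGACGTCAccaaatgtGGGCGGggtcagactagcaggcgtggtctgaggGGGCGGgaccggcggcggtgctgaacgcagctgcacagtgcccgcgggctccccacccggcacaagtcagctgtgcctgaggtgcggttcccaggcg
Ccnd3: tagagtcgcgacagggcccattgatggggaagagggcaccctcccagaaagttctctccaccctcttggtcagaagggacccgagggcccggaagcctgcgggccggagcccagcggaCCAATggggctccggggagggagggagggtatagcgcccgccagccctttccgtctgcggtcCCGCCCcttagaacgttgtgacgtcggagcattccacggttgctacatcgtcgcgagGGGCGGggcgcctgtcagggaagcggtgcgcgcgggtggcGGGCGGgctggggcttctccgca
The Cdkn1a window, with 56.7% G and C, held no match to any of the motifs searched. The Cdkn2b window held 3 GC boxes and a full cAMP response element that starts 96 bases before the start of the gene (-96), a motif present in 1.83% of all 33469 promoters. The Cdkn2a window held 1 GC box, and the Ccnd3 window held 3 GC boxes and 1 CCAAT box. A GC box is present in 33.1% and a CCAAT box in 37.5% of all promoters. E2F-type sites, present in 0.974%, 0.493% and 0.326% of promoters in the order given, the TATA box (14.2%) and the E-box (6.42%) had no match in any of the 7 windows. A match is a description of letters, and no match says only that these letters are not in this window. Which start of a gene these cells used was not tested, so a window need not be the promoter in use.

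The makeup of both classes differed between the groups. Cdkn1a, which encodes the inhibitor p21, rose about 4-fold and became the most abundant of the 10 transcripts, and Ccnd1, which encodes cyclin D1, rose about 10-fold from near the bottom of the list. The other D-type cyclin genes rose by less, Cdkn2a and Cdkn2d rose, Cdkn2b fell by close to 2-fold, and Cdkn1b was slightly lower. By edgeR's quasi-likelihood test on counts, with Benjamini-Hochberg adjustment over all 12623 genes tested and a threshold of 0.05, 6 of the 10 were higher in CYSP, 2 were lower and 2 did not pass. Of all genes tested 38.2% were called higher and 37.8% lower, so 8 of 10 called, against a background of 76.1%, is no result about these genes as a set. All 10 passed the filter on low counts. Their median log2 fold change was 0.48, beside 0.00 (0.004614 unrounded) over all genes tested. The samples of the groups did not overlap in CPM for 7 of the 10, with 6 above and 1 below in CYSP, beside 77% of all genes tested (38.8% above and 38.2% below). Where a log2 fold change of 1 or more in size was required as well, Ccnd1, Cdkn1a and Cdkn2d were higher and none of the 10 was lower, against 15.2% and 12.7% of all genes. Levels below are FPKM, fragments scaled to transcript length and library size, while fold changes come from the counts and carry a standard error (SE).

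**Figure D1:**
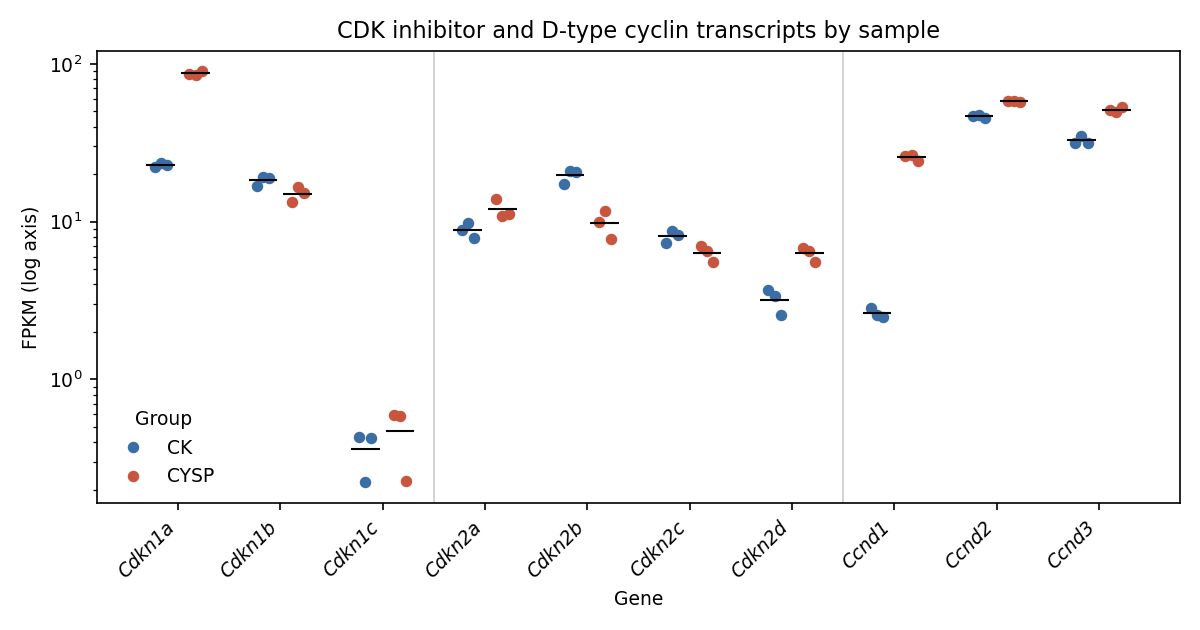
FPKM of each gene in each sample on a log axis, with CK in blue, CYSP in red and a line at each group's mean (n = 3). Cdkn1a and Ccnd1 are the genes with the widest gap between the groups, and for Cdkn1c the groups overlap at the bottom of the axis.

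Among the Cip/Kip genes, Cdkn1a had 22.2, 23.5 and 23.0 FPKM in CK 1 to 3 and 86.0, 85.7 and 89.8 FPKM in CYSP 1 to 3. All 3 CYSP samples lay far above all 3 CK samples, and the spread within a group was small. The mean rose from 22.9 ± 0.679 to 87.2 ± 2.29 FPKM (SD, n = 3), with a log2 fold change of 2.01 (SE 0.050, edgeR adjusted p = 1.45e-50). As high a log2 fold change was found in 6.98% of the genes tested. The p21 protein inhibits CDK2 complexes.

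Cdkn1b, which encodes p27, a Cip/Kip inhibitor of quiescent cells, went the other way by a small amount. It had 16.95, 19.3 and 19.0 FPKM in CK and 13.4, 16.5 and 15.1 FPKM in CYSP. Every CYSP sample was below every CK sample on this scale, but the groups overlapped in CPM scaled by TMM, edgeR's library scaling, where CYSP 2 (29.7 CPM) lay above CK 1 (28.9 CPM). The log2 fold change was -0.21 (SE 0.079, edgeR adjusted p = 0.0127). Leaving out CK replicate 2 ended that call (adjusted p = 0.0519), and so did leaving out CYSP replicate 1 (adjusted p = 0.152), with a log2 fold change of -0.14. Cdkn1c, the imprinted gene of the inhibitor p57, was barely expressed, with 14, 7 and 14 counts in CK and 19, 17 and 7 counts in CYSP. The groups overlapped, and its log2 fold change of 0.42 (95% interval -0.45 to 1.29, edgeR adjusted p = 0.391) leaves the size and the direction of a difference undetermined at this depth.

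The 4 INK4 genes were split. Cdkn2b, which encodes p15, an inhibitor known as a TGF-beta response gene, had 17.3, 20.9 and 20.8 FPKM in CK and 9.90, 11.6 and 7.79 FPKM in CYSP. The groups did not overlap, and the log2 fold change was -0.89 (SE 0.093, edgeR adjusted p = 4.42e-14). As low a value was found in 14.3% of the genes tested.

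Cdkn2a encodes the inhibitor p16 and, through another first exon and reading frame, the ARF protein, and gene counts cannot tell these transcripts apart. It had 8.81, 9.82 and 7.85 FPKM in CK and 14.01, 10.8 and 11.3 FPKM in CYSP. CYSP 1 was the highest, and the other CYSP samples were close to CK 2. The log2 fold change was 0.53 (SE 0.14, edgeR adjusted p = 3.73e-04), and leaving out any single sample kept it between 0.42 and 0.61 and past the threshold. In the authors' deposited table the adjusted p of Cdkn2a was 0.068, which does not pass, while the other 9 genes fell on the same side of 0.05 there as in edgeR.

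Cdkn2d, which encodes the INK4 protein p19, had 3.68, 3.36 and 2.57 FPKM in CK and 6.83, 6.56 and 5.56 FPKM in CYSP, with no overlap. Its log2 fold change was 1.06 (SE 0.18, edgeR adjusted p = 2.37e-07). Cdkn2c, which encodes p18, had 7.37, 8.67 and 8.20 FPKM in CK and 7.01, 6.49 and 5.52 FPKM in CYSP. Its log2 fold change of -0.26 (95% interval -0.51 to -0.01) did not pass after adjustment (edgeR adjusted p = 0.0587). The call depended on single samples: it passed when CK replicate 1 was left out (adjusted p = 0.0318) or CYSP replicate 1 (adjusted p = 0.0275). It also passed with upper quartile scaling (0.0426), with library size only (0.0124) and in limma on log2(FPKM + 1) (0.011).

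In the RefSeq annotation of GRCr8, Cdkn2a and Cdkn2b lie side by side on chromosome 5 with 1 uncharacterised locus between them. Within each sample the ratio of their FPKM values was compared, which removes the scaling of the library. Cdkn2b was 2.23 times as abundant as Cdkn2a in CK, and Cdkn2a was 1.24 times as abundant as Cdkn2b in CYSP, by the mean log2 ratio. The log2 ratio of Cdkn2a to Cdkn2b was -1.16 ± 0.221 in CK and 0.308 ± 0.36 in CYSP (SD, n = 3), with every CYSP sample above every CK sample. CYSP 2 alone kept a slightly negative ratio (-0.11). The exact two-sided permutation test gave p = 0.1, the smallest value that 3 samples against 3 allow. This ratio is 1 of 4 such pairs, all chosen after their values were seen, and the exact permutation p of each was 0.1 before and after adjustment over the 4.

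All 3 D-type cyclin genes were higher in CYSP, by very different factors. Ccnd1 had 2.85, 2.54 and 2.48 FPKM in CK and 26.0, 26.5 and 24.2 FPKM in CYSP. The lowest CYSP sample was well above the highest CK sample. Its log2 fold change was 3.35 (SE 0.094, edgeR adjusted p = 4.96e-47), and 3.45% of the genes tested had as high a value. Cyclin D1 is the D-type cyclin known for its response to growth factor and adhesion signals.

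Ccnd2, which encodes cyclin D2, had 46.6, 47.4 and 45.5 FPKM in CK and 58.1, 58.1 and 57.3 FPKM in CYSP. The samples of a group were close together, so a modest log2 fold change of 0.40 (SE 0.032) passed (edgeR adjusted p = 3.67e-19). Ccnd3, which encodes cyclin D3, had 31.5, 35.0 and 31.6 FPKM in CK and 51.2, 49.4 and 52.995 FPKM in CYSP. Its groups did not overlap either, and its log2 fold change was 0.73 (SE 0.049, edgeR adjusted p = 2.86e-23).

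**Figure D2:**
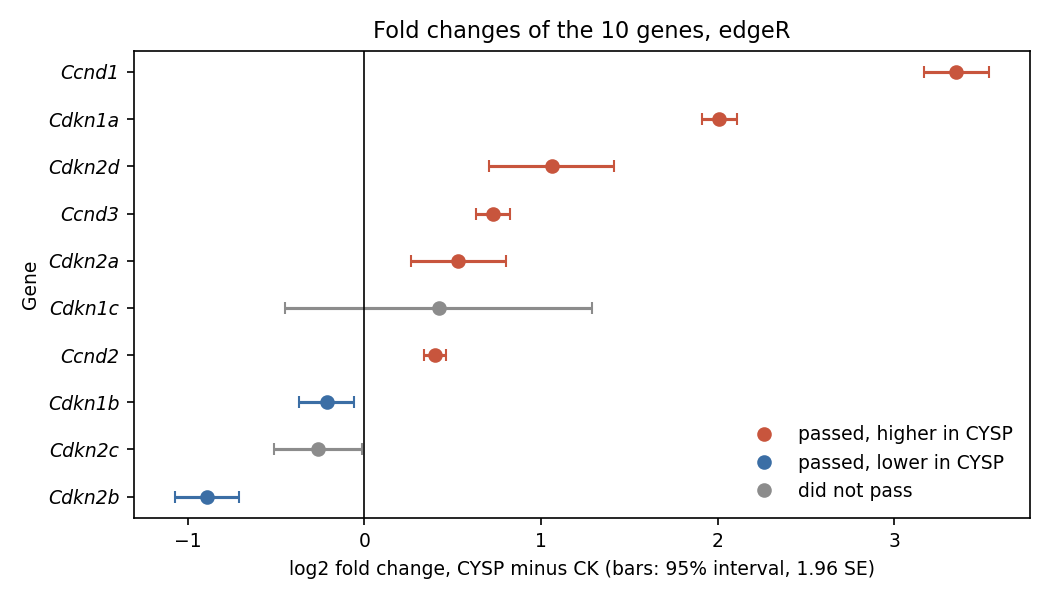
log2 fold change of each gene, CYSP minus CK, with its 95% interval from the edgeR standard error (red, passed and higher in CYSP; blue, passed and lower; grey, did not pass). Ccnd1 at 3.35 and Cdkn1a at 2.01 stand to the right of the other 8, which lie between -0.89 and 1.06.

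The spread between the samples was small, with a common biological coefficient of variation of 0.0393, and this sets which of the small differences pass. If a coefficient of 0.2 is assumed instead, 4 of the 10 genes stayed higher and 1 stayed lower, against 24.6% and 22.2% of all genes (46.8% in either direction). Ccnd2 (adjusted p = 0.157), Cdkn2a (0.0761) and Cdkn1b (0.498) then lost their calls, by edgeR's likelihood ratio test. With 0.4 assumed, Ccnd1 (adjusted p = 3.17e-09) and Cdkn1a (3.8e-04) were the genes still called, both higher, against 11.9% of all genes (21.4% in either direction). None of the 10 was then called lower, against 9.58% of all genes, nor at an unadjusted p under 0.05 (0 genes).

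By level per length, the order of the 10 transcripts in CK was Ccnd2, Ccnd3, Cdkn1a, Cdkn2b, Cdkn1b, Cdkn2a, Cdkn2c, Cdkn2d, Ccnd1 and Cdkn1c. Neighbours whose samples overlapped in CK were Cdkn2b and Cdkn1b, Cdkn2a and Cdkn2c, and Cdkn2d and Ccnd1. In CYSP the order was Cdkn1a, Ccnd2, Ccnd3, Ccnd1, Cdkn1b, Cdkn2a, Cdkn2b, Cdkn2c, Cdkn2d and Cdkn1c. There the overlapping neighbours were Cdkn1b and Cdkn2a, Cdkn2a and Cdkn2b, and Cdkn2c and Cdkn2d. Cdkn1a thus went from place 3 to place 1 and Ccnd1 from place 9 to place 4.

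Within the D-type cyclin class, Ccnd1 supplied 3.21 ± 0.277% of the summed FPKM in CK and 19.0 ± 0.907% in CYSP (SD, n = 3). The share of Ccnd2 was 56.8 ± 0.931% in CK and 43.0 ± 0.389% in CYSP, although its own level rose. The share of Ccnd3 was 39.96 ± 1.17% and 38.02 ± 1.29%, with overlapping samples (exact permutation p = 0.2, two-sided). For Ccnd1 and Ccnd2 the groups did not overlap and the exact permutation p was 0.1, the smallest possible. Ccnd2 was 17.8 times as abundant as Ccnd1 in CK and 2.26 times in CYSP, and Ccnd3 was 12.5 and 2.00 times as abundant as Ccnd1, by mean log2 ratios.

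Within the inhibitor class, Cdkn1a supplied 28.1 ± 0.74% of the summed FPKM in CK and 63.6 ± 2.42% in CYSP. Cdkn1b went from 22.6 ± 0.602% to 10.96 ± 1.13%, Cdkn2b from 24.1 ± 1.42% to 7.12 ± 1.33%, and Cdkn2c from 9.91 ± 0.269% to 4.62 ± 0.508%. For these 4 genes the groups did not overlap (exact permutation p = 0.1 each, two-sided). In CK the class was thus spread over Cdkn1a, Cdkn2b and Cdkn1b at similar shares, while in CYSP a single gene held most of it. The shares of Cdkn2a (10.8 ± 1.08% and 8.77 ± 1.24%), Cdkn2d (3.95 ± 0.826% and 4.6 ± 0.441%) and Cdkn1c (0.448 ± 0.166% and 0.342 ± 0.15%) overlapped between the groups. Cdkn1a was 1.25 times as abundant as Cdkn1b in CK and 5.82 times in CYSP.

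**Figure D3:**
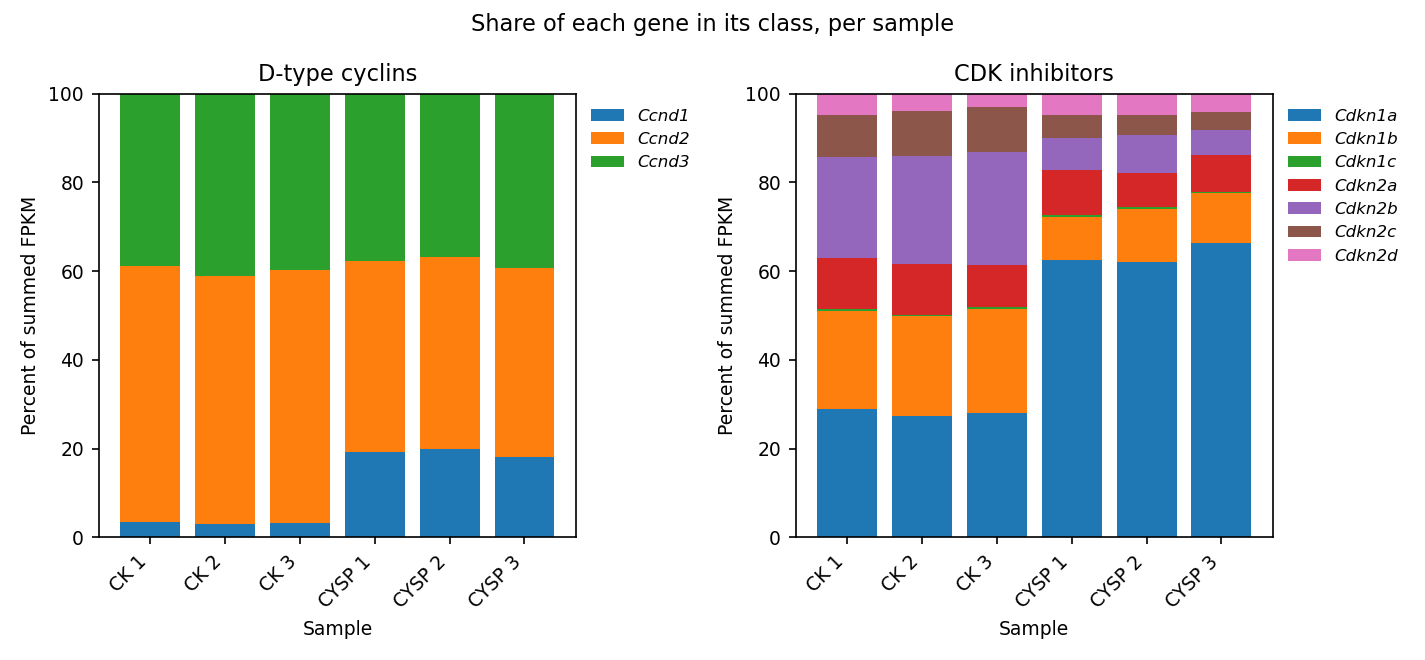
Percent of the summed FPKM of each class that each gene supplies, as stacked bars per sample, with D-type cyclins on the left and CDK inhibitors on the right. The Ccnd1 block grows from 3.21% to 19.0% on average and the Cdkn1a block from 28.1% to 63.6%, with little spread between the 3 samples of a group.

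Set against each other, the summed FPKM of the 7 inhibitors and of the 3 cyclins stayed in nearly the same ratio. The log2 ratio of inhibitor to cyclin transcripts was -0.078, 0.016 and 0.041 in CK and 0.026, 0.044 and 0.008 in CYSP. The groups overlapped, with a mean difference of 0.033 (exact permutation p = 0.6, two-sided), which does not show that the ratios are equal. Summed CPM, which weighs long transcripts more, gave a difference of 0.25 with no overlap (exact permutation p = 0.1). These are ratios of transcripts, not of proteins, whose turnover is a main control of this family.

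Of the other genes of the pathway more fell than rose at the estimated spread. Over 10 lists 101 genes were found and 99 tested, of which 23 rose (23.2%) and 56 fell (56.6%), beside 38.2% and 37.8% of all genes. With an assumed coefficient of 0.2 these numbers were 18 (18.2%) and 31 (31.3%), beside 24.6% and 22.2% of all genes. With 0.4 they were 9 and 9 of the 99, the same number in each direction, beside 11.9% and 9.58% of all genes. Of 7 tested G1 kinase and later cyclin genes 5 fell and 1 rose, and the median log2 fold change was -0.30, beside 0.00 over all genes. Cdk6, a kinase partner of the D-type cyclins, fell from 21.5 ± 2.03 to 7.5 ± 0.762 CPM (log2 fold change -1.51). Cdk4, the other kinase partner, went from 137 ± 1.94 to 124 ± 4.31 CPM (-0.15, edgeR adjusted p = 9.73e-04), a call lost with an assumed coefficient of 0.2. Cdk2, the partner of cyclins E and A, had a log2 fold change of -0.12 and did not pass (edgeR adjusted p = 0.285).

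Ccna2, the cyclin A2 gene of S phase, fell by 1.93 and Cdk1, the mitotic kinase gene, by 1.17 on the log2 scale. The gene that rose was Ccne1, the cyclin E1 gene, with a log2 fold change of 1.15, while the cyclin E2 gene Ccne2 fell by 0.30 on the log2 scale (edgeR adjusted p = 0.00129), a call lost with an assumed coefficient of 0.2. Both were named after their values were seen. All 3 genes of the CDK-activating kinase, Ccnh, Cdk7 and Mnat1, fell, with log2 fold changes of -0.49, -0.41 and -0.35, and none of these calls remained with an assumed coefficient of 0.2.

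The retinoblastoma family, on which the D-type cyclin kinases act, was split. Rb1, the retinoblastoma gene, rose with a log2 fold change of 0.53 and Rbl1, which encodes the pocket protein p107, fell by 0.56 on the log2 scale. Rbl2, which encodes the pocket protein p130, rose as Rb1 did, with a log2 fold change of 0.51, and was named after its value was seen. The calls of Rb1 and Rbl2 were lost with an assumed coefficient of 0.2. Of the 8 pocket protein and MuvB genes 3 rose and 3 fell (37.5% each), close to the 38.2% and 37.8% of all genes tested. Lin9, a MuvB subunit, was at -0.65. With an assumed coefficient of 0.2, 0 of the 8 pocket protein and MuvB genes were higher and 2 lower, beside 24.6% and 22.2% of all genes. Of 9 tested E2F and DP genes 5 fell (55.6%) and 1 rose (11.1%). The gene that rose was E2f2, an activator E2F, with a log2 fold change of 1.67 and summed counts of 63 in CK and 185 in CYSP. The repressor genes E2f7 and E2f8 fell by 1.41 and 0.66 on the log2 scale. E2f1 is not analysed here.

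Of 15 E2F target genes of DNA replication 11 fell and none rose by edgeR, by DESeq2 or at an unadjusted edgeR p under 0.05 (0 genes higher in each). The share that fell was 73.3%, beside 37.8% of all genes tested by edgeR. With an assumed coefficient of 0.2, 8 of the 15 were lower, beside 22.2% of all genes. With 0.4 assumed, 1 was lower, beside 9.58% of all genes. Their log2 fold changes had a median of -0.79. Mcm7 and Mcm6, subunits of the replicative helicase, and Uhrf1, which maintains DNA methylation, had log2 fold changes of -1.33, -0.93 and -1.16. Of the 8 proliferation markers given above 7 fell as well, with a median of -1.41.

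**Figure D4:**
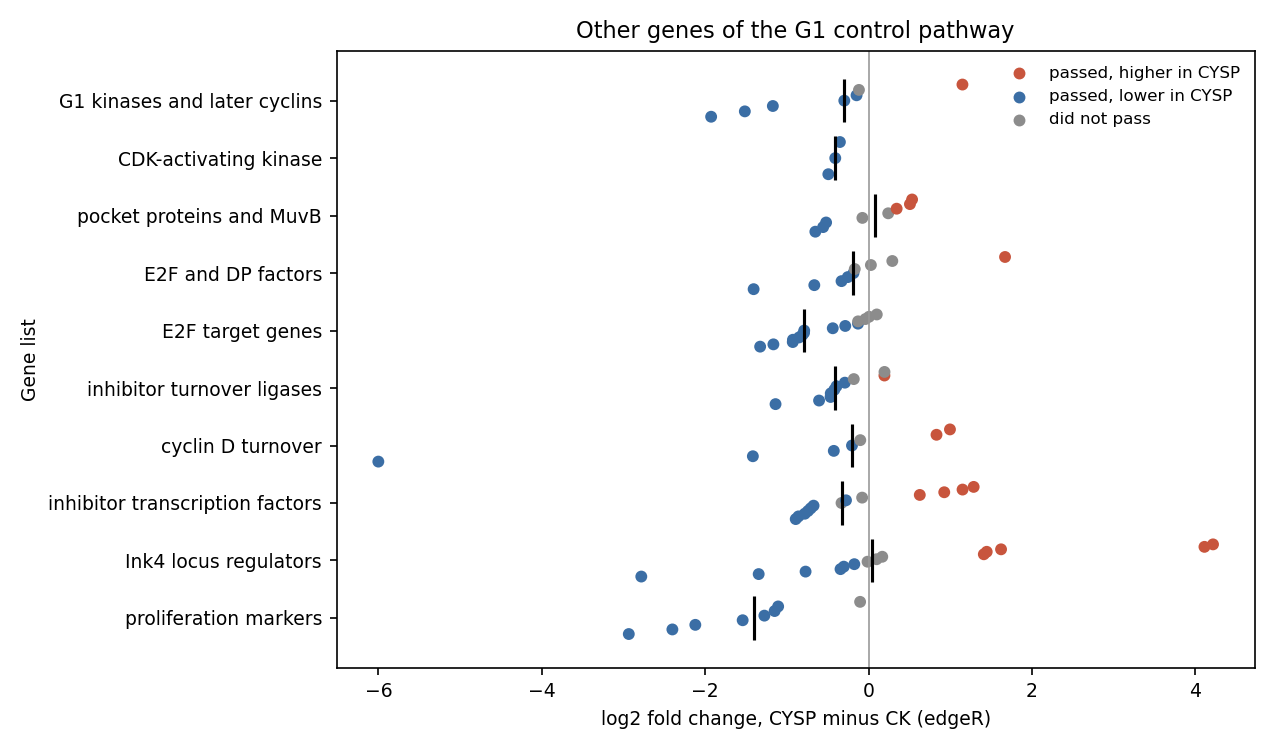
log2 fold change of each tested gene of 9 of the pathway lists and of the proliferation markers, 1 point per gene, with a black line at each list's median (red, passed and higher in CYSP; blue, passed and lower; grey, did not pass). Most points of the kinase, E2F target and proliferation lists lie left of 0, and the INK4 locus regulators spread from -2.78 to 4.22.

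Protein turnover of the inhibitors runs through ubiquitin ligases. Of 10 genes for them 7 fell (70%) and 1 rose (10%), beside 37.8% and 38.2% of all genes tested (median -0.41 on the log2 scale). With an assumed coefficient of 0.2, 2 of these 10 genes were lower and 0 higher, beside 22.2% and 24.6% of all genes. Cul1, the scaffold of the SCF ligase that marks p27, fell from 206 ± 4.95 to 93.6 ± 1.21 CPM, while Skp2, its substrate receptor, had a log2 fold change of -0.18 and did not pass (edgeR adjusted p = 0.203). The symbol Skp2 stands on several identifiers, so its reads may be split. Dtl and Ddb1, parts of the ligase that marks p21 in S phase, had log2 fold changes of -0.61 and -0.46, the latter lost with an assumed coefficient of 0.2. The gene that rose was Skp1 (0.19), an SCF adaptor, named after its value was seen, and its call too was lost with an assumed coefficient of 0.2.

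Of 7 genes for cyclin D turnover 4 fell (57.1%) and 2 rose (28.6%), beside 37.8% and 38.2% of all genes tested. With an assumed coefficient of 0.2, 2 of the 7 were lower and 2 higher, beside 22.2% and 24.6% of all genes. Cryab, a small heat shock protein that was described as a cofactor of the F-box protein Fbxo4, had summed counts of 514 in CK and 7 in CYSP, a drop in all 3 samples. Fbxo4 fell from 7.55 ± 0.697 to 2.82 ± 0.394 CPM, and Fbxo31, another F-box gene for cyclin D1, rose from 9.51 ± 0.456 to 19.0 ± 2.31 CPM.

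Among 13 genes for transcription factors of the inhibitors and their regulators, 4 rose (30.8%) and 7 fell (53.8%). Of all genes tested 38.2% rose and 37.8% fell. With an assumed coefficient of 0.2, 4 of the 13 were higher and 6 lower, beside 24.6% and 22.2% of all genes. Mdm2, which encodes a ubiquitin ligase, rose from 66.4 ± 1.22 to 162 ± 9.16 CPM. Foxo3, a forkhead factor known to act on Cdkn1b, rose by a log2 fold change of 1.15, and Smad3, a TGF-beta effector known to act on Cdkn2b and Cdkn1a, by 0.93. Smad2 and Smad4, effectors of the same pathway, fell by 0.89 and 0.74 on the log2 scale, and were named after their values were seen. Myc, Klf4, Sp1 and Mdm4 of this list also fell (log2 fold changes -0.86, -0.78, -0.71 and -0.67). They too were named after their values were seen.

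Of 14 genes known to regulate the INK4 locus 5 rose (35.7%) and 6 fell (42.9%), with a median of 0.04. These shares are close to the 38.2% and 37.8% of all genes tested. Cbx7, a Polycomb protein that represses the locus, rose from 1.11 ± 0.38 to 20.9 ± 1.03 CPM. Id1, an inhibitor of the factors that activate p16, rose from 1.25 ± 0.145 to 21.8 ± 2.5 CPM, and Ets1, an activator of p16, fell from 147 ± 3.32 to 21.3 ± 2.25 CPM. Genes with like roles went the other way: Ets2, related to Ets1, rose with a log2 fold change of 1.41, and the Polycomb genes Eed and Bmi1 fell by 1.34 and 0.77 on the log2 scale. These 3 were named after their values were seen.

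Genes most like Ccnd1 and Cdkn2b in pattern, the members with a mean of at least 10 CPM that rose and fell most, were sought by Pearson correlation of log2 CPM over the 6 samples among 8367 other genes of at least 10 CPM. For Ccnd1 these were St6gal1, Itm2c and Tnn, each with r = 1.00 after rounding, and 14.8% of the genes compared had r of at least 0.99. For Cdkn2b they were Vps13b, Stat3 and Rcn3 (r = 0.998, 0.998 and 0.997), and 0.669% reached 0.99. With 2 groups of 3 samples such a value mostly states that both genes differ between the groups, and the points share their libraries.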

How the data were processed

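PolyA-selected RNA from 3 CK and 3 CYSP samples was sequenced, per the labels' protocols. The submitters' processing notes name fastp 0.18.0, HISAT2, StringTie 1.3.1 and RSEM with no role. Build, annotation, counting tool and use of strand: not given in the sources used here. The deposited table holds raw read counts and FPKM of every gene in each sample, per the file headers. The authors' log2 fold change in it equals the log2 ratio of their mean FPKM values. The deposited p-value and its adjusted form come from an unnamed test.

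Counts of the whole table were tested with edgeR 4.0.16 in R 4.3.3 (filterByExpr, TMM, glmQLFit and glmQLFTest, robust), which kept 12623 of 23091 genes. Standard errors were derived from the F statistic. FPKM served for levels between genes, CPM are TMM-scaled, and the exact permutation test was run over samples for shares and ratios. Alternatives were other scalings and filters, DESeq2 1.42.0, limma 3.58.1 (voom, and trend on log2(FPKM + 1)), leaving out single samples, a block for the replicate number, assumed coefficients of variation and summed identifiers. The procedure was tested on simulated counts. The 10 genes and all lists were chosen with earlier results of these data known. From each pathway list up to 3 genes past the threshold with the largest fold change, at least 1 CPM and no overlap between groups were named, with Cdk4, Cdk6, Cdk2, Rb1, Skp2 and Mdm2 named whatever their values. A further gene of that rule and 1 of the 10 pathway lists count in the totals and are not reported here singly. The ratios of gene pairs and the single genes so marked were chosen after the data were seen.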

Additional observations from a re-analysis of the deposited data

How the results depend on the processing

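None of the 10 genes changed direction under any alternative run. With each sample left out, 6 genes stayed higher, and 1 to 3 were called lower, with 1 called without CK replicate 2; without CYSP replicate 1 the number stayed at 2 while Cdkn1b lost and Cdkn2c gained its call. Over the pathway lists 22 to 25 genes were higher and 55 to 57 lower in those fits. With an assumed coefficient of variation of 0.2, 4 of the 10 genes were higher and 1 lower, and 18 pathway genes were higher (18.2% of those tested) and 31 lower (31.3%), beside 24.6% and 22.2% of all genes. With 0.4, 2 of the 10 were higher and 0 lower. Of the 99 pathway genes tested, 9 were then higher and 9 lower, beside 11.9% and 9.58% of all genes. With CPM in place of FPKM the Ccnd1 share differed by 9.3 percentage points, beside 15.8 with FPKM, and the log2 ratio of inhibitors to cyclins by 0.25, beside 0.033. The Ccnd3 share then differed by 1.65 points, beside -1.94 with FPKM. Without CK replicate 1 the log2 ratio difference was -0.002, and over all single samples left out it reached at most 0.057. Scaling by library size only shifted the median of all genes by -0.083.

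With the replicate number as a block, 6 of the 10 genes were higher and 2 lower, and 23 pathway genes were higher and 56 lower, the same numbers as without it. Deviations of same-numbered samples from their group means correlated at -0.001, 0.019 and -0.009 across genes, which shows no sign of pairing by number. With 3 samples per group this cannot exclude pairing, and the labels do not say. Paired by number, the exact two-sided permutation p was 0.25 for the Ccnd1 and Cdkn1a shares, the smallest that 3 pairs allow, and 0.75 for the log2 ratio. Depth limits Cdkn1c, with 7 to 19 counts per sample.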
